A study of Mus musculus with 12 samples.

Results

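The 10 genes described here, Slc10a6, Rasgrp1, Fam163a, Pnma1, Tesc, Hmgb3, Higd1a, Haus1, Tle1 and Tmem40, were picked because wild-type mice differed in them between a high-fat and a normal diet. They are 10 of the 18193 genes that at least 1 unshared probe set represents, and they were read through all 19 probe sets annotated to them. RNA from C57BL6 mice was hybridised to 12 Affymetrix arrays, 1 array a sample and 3 arrays a group: wild type (WT) on the normal diet, WT on the high-fat diet, Sgpp2-/- (KO) on the normal diet and KO on the high-fat diet. The labels gave no tissue, age, sex, length of feeding or make of the knockout allele, and the series title names pancreatic islets. Values are the deposited log2 summaries of each probe set, so that a difference of 1 is a 2-fold change. The question was whether the KO shows the diet response for which the genes were picked in WT. The difference in WT is therefore given as a description with no test. The diet difference on the 6 KO arrays, which the choice did not use, carries the test. The spread of the KO arrays is not free of the choice, since a WT contrast fitted over all 12 arrays draws on it.

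A high-fat diet puts a lasting demand on pancreatic islets, whose β-cells answer insulin resistance with more insulin secretion and, in mice, with growth of the β-cell mass. Sgpp2 encodes a phosphatase of the endoplasmic reticulum that breaks down the signalling lipid sphingosine-1-phosphate. The 10 genes belong to no single pathway. Slc10a6 encodes a sodium-dependent carrier of sulphated steroids, Rasgrp1 an exchange factor that switches on RAS in answer to diacylglycerol and calcium, and Tesc (tescalcin) a calcium-binding protein that attaches to a sodium-proton exchanger. Higd1a encodes a hypoxia-induced protein of the inner mitochondrial membrane. Tle1, a corepressor of the Groucho family, and Hmgb3, a chromatin protein with HMG boxes, act in the nucleus, and Haus1 is a subunit of augmin, the complex from which new spindle microtubules branch. Pnma1 belongs to a family related to retrotransposon gag proteins, while Fam163a and Tmem40 encode membrane proteins of little-known function.

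Islet hormones were bright on the arrays (mean log2 value 14.57 for Ins2, 14.40 for Gcg and 14.27 for Sst), as was the acinar enzyme gene Cpa1 (13.97), while the liver gene Alb had 6.11 and the fat cell gene Adipoq 3.53. Sgpp2 itself was lower on every KO array (at most 11.17) than on every WT array (at least 11.46). The difference averaged over both diets was −0.46, so the KO arrays kept a bright Sgpp2 signal, and its source was not tested. Arrays of a group correlated with r between 0.9912 and 0.9959 over the 15237 genes tested, those with a log2 value over 5 on at least 3 arrays (the filter). On the first principal component, with 27.1% of the variance, array 2 of the WT high-fat group (6.5) fell in the range of the KO arrays (2.4 to 26.2), apart from the other WT arrays (−21.1 to −7.5), and array 3 of the KO high-fat group had the highest score. Whether each array is a separate animal was not in the labels, so the p-values rest on a sample-to-sample spread that may be technical. In whole tissue a lower value can mean fewer cells of a type or less RNA per cell, and these cannot be told apart.

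The stretch around the transcription start, from 250 bases before it to 50 after, was taken from RefSeq (build GRCm38.p6) for 9 of the 10 genes, which had 10 such promoters; Haus1 was not matched. The 5 promoters printed belong to the genes whose KO arrays, like their WT arrays, did not overlap between the diets. They are written 5′ to 3′ on the strand of the gene, and capitals mark CCAAT and ACGTG on either strand, the second being the core of the hypoxia response element.
Slc10a6 (chr5:103629354-103629653, minus strand): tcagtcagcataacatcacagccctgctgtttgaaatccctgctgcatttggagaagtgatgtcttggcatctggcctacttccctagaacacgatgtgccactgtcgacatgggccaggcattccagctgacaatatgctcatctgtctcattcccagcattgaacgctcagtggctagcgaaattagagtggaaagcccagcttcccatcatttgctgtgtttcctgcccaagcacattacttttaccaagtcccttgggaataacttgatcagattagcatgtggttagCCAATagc
Rasgrp1 (chr2:117342828-117343127, minus strand): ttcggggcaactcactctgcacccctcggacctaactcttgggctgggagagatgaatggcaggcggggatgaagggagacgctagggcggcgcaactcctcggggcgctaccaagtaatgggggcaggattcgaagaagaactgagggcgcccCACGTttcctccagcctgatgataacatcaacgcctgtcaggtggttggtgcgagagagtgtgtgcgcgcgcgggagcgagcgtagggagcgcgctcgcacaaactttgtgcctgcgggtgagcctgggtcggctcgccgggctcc
Fam163a (chr1:156204977-156205276, minus strand): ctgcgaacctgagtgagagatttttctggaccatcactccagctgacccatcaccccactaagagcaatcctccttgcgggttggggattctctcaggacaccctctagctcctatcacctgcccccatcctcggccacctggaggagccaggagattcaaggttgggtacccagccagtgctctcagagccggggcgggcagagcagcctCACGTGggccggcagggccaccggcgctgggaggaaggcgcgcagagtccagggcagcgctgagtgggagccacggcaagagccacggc
Tesc (chr5:118027493-118027792, plus strand): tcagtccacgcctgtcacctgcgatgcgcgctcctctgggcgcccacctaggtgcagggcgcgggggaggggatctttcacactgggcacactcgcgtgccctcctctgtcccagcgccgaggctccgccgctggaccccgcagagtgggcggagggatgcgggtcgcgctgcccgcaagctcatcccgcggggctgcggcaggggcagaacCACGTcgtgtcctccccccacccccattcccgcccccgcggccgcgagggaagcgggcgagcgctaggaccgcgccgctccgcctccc
Higd1a (chr9:121857747-121858046, minus strand): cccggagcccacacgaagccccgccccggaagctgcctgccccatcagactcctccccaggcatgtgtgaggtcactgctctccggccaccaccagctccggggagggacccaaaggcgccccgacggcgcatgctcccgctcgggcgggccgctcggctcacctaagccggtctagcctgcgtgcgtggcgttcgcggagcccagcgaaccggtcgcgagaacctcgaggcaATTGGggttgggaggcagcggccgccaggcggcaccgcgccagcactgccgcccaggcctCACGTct

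ACGTG stood in the promoters of Rasgrp1, Fam163a, Tesc, Higd1a and Tle1, 5 of 10 promoters, against 19.6% of all 32851 promoters of the table. In Fam163a it lies within the palindrome CACGTG, the E-box, which 7.15% of all promoters hold and no other of the 10 does. CCAAT stood in those of Slc10a6, Higd1a and Hmgb3 and in both of Tmem40 (5 of 10, against 37.4% of all), GGGCGG in 8 of 10 (35.7%), TGACG in 3 of 10 (20.8%) and TATAAA in 0 of 10 (13.6%). The Slc10a6 promoter held neither ACGTG nor GGGCGG. Both strands were searched for each of these 6 motifs, which were chosen after the values were known, and ACGTG overlaps CACGTG by construction. A match describes letters and not a bound site.

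In WT, 2 of the 10 genes (Slc10a6 and Tle1) were higher on the high-fat diet and 8 were lower, with sizes from 0.63 (Haus1) to 1.48 (Slc10a6) on the log2 scale and a median size of 0.87, against 0.10 over all 15237 genes. In all 10 the 3 WT high-fat arrays did not overlap the 3 WT normal arrays, as in 15.8% of all genes, and the choice of the genes fixed this. The same contrast gave 12 genes an adjusted p under 0.05 (0.0788% of genes tested), the 10 among them; this describes how they were picked and is no test of them. The other two were Reg2 (log2 difference −4.19), a secreted protein of the regenerating family, and the haemoglobin gene Hbb-bh1 (0.87). Hmgb3 (−0.78) was the last gene inside that threshold, and Ms4a1 (0.93), a B cell marker, and the histone gene H3c4 (0.95) were the first outside it.

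In KO, 9 of the 10 genes had a diet difference in the direction of WT, Haus1 being the exception, where 59.9% of all genes did. The median difference along the WT direction was 0.31 on the log2 scale, against 0.030 over all genes. Slc10a6, Rasgrp1, Fam163a, Tesc and Higd1a, 5 of 10, had an unadjusted p under 0.05 in that direction by limma, a linear model that steadies each gene's variance with those of all genes, against 5.72% of all genes, and the same 5 genes had KO arrays that did not overlap between the diets, against 8.98% of all genes. No member passed after Benjamini-Hochberg adjustment over all genes, and neither did any other gene: 0 of 15237 were called (0%), while 1156 (7.59%) had an unadjusted p under 0.05. Read on the brightest probe set of each gene, the difference was smaller in KO than in WT for all 10. It was between −12.9% (Haus1) and 57.7% (Rasgrp1) of the WT value, with a median of 32.6%. Some other probe sets of Rasgrp1 and Tmem40, given below, had a larger difference in KO, and the remaining ones a smaller one. The genes were picked for the size of the WT value, so this comparison carries no test. Without KO high-fat array 3, which stood at the end of the first component, 9 of 10 kept the WT direction, with a median of 0.24, and 4 had an unadjusted p under 0.05. The shares over all genes given above belong to the fit with all 6 KO arrays, so these last counts are set against no share.

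**Figure D1:**
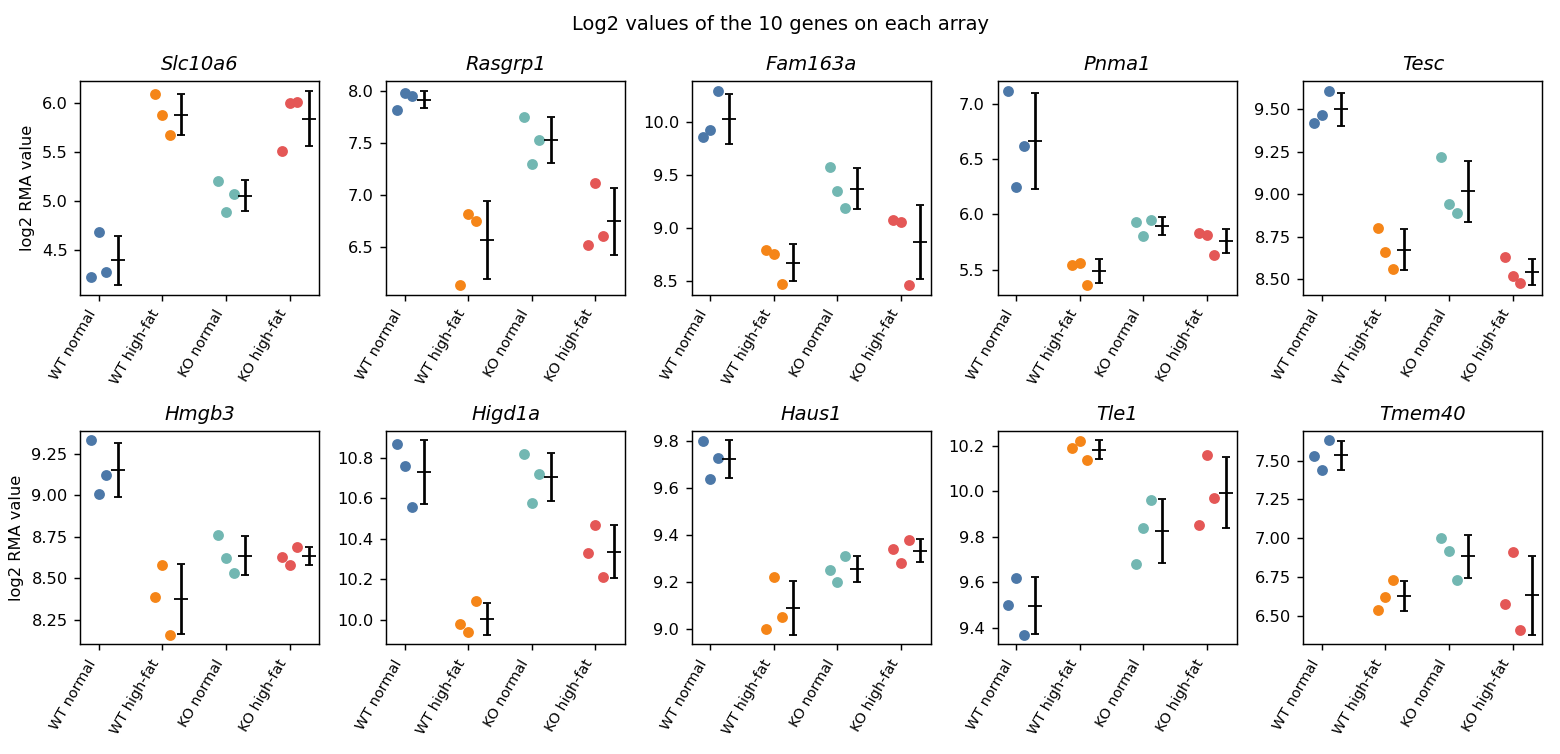
Log2 value of the 10 genes on each of the 12 arrays, by group (points, 3 arrays each); the black mark and bar give the mean and SD of the group, and the vertical axes differ between genes and do not start at 0. On the probe set used for each gene, the KO normal mean lies between the WT normal and WT high-fat means, and close to WT normal for Higd1a.

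The carrier gene Slc10a6 had the largest WT difference of the 10 and the same direction in KO. It read 4.22, 4.68 and 4.28 on the WT normal arrays, 6.09, 5.87 and 5.67 on the WT high-fat arrays, 5.20, 4.89 and 5.07 on the KO normal arrays and 5.51, 5.99 and 6.01 on the KO high-fat arrays. All high-fat arrays lay above all normal arrays, and among normal arrays KO lay above WT. The KO difference was 0.78 (SE 0.16, 95% interval 0.41 to 1.16, 1.72-fold), with an unadjusted p of 0.00162 and a limma adjusted p of 0.411. The WT normal arrays lay below a log2 value of 5, so the gene passed the filter through the other groups, and it was not tested with the filter at 6.

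Rasgrp1, the RAS exchange factor, was lower on the high-fat diet in both genotypes. Its values were 7.82, 7.98 and 7.95 on the WT normal arrays and 6.13, 6.81 and 6.75 on the WT high-fat arrays, and 7.75, 7.30 and 7.53 on the KO normal arrays and 6.52, 7.11 and 6.6 on the KO high-fat arrays. The diets did not overlap in either genotype, and the genotypes overlapped on the high-fat diet. In KO the difference was −0.78 (SE 0.19, 95% interval −1.22 to −0.34, unadjusted p = 0.00401, adjusted p = 0.482). These values come from 1 of 4 probe sets. The other 3 had WT differences of −0.06, −0.22 and −0.28 and KO differences of −0.30, −0.24 and 0.01, at mean values of 5.30 or less in every group, and 2 of them did not pass the filter. Averaged over the probe sets, the KO difference was −0.33 (unadjusted p = 0.0188).

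Tesc, the calcium-binding partner of the exchanger, read 9.42, 9.47 and 9.61 on the WT normal arrays, 8.80, 8.66 and 8.56 on the WT high-fat arrays, 9.22, 8.94 and 8.89 on the KO normal arrays and 8.63, 8.52 and 8.48 on the KO high-fat arrays. Both genotypes were lower on the high-fat diet with no overlap, and every KO normal array lay below every WT normal array. In KO it differed by −0.47 (SE 0.11, 95% interval −0.74 to −0.21, unadjusted p = 0.00357, adjusted p = 0.479). In a fit over all probe sets without the filter, the other probe set gave −0.78 in WT and −0.33 in KO (unadjusted p = 0.0122), again without overlap in either genotype.

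On the probe set used, the mitochondrial gene Higd1a had a like level in both genotypes on the normal diet and separated on the high-fat diet. It read 10.87, 10.76 and 10.56 on the WT normal arrays and 10.82, 10.58 and 10.72 on the KO normal arrays, which overlapped. On the high-fat diet the values were 9.98, 9.94 and 10.09 in WT and 10.33, 10.47 and 10.21 in KO, with every KO array above every WT array. The KO difference was −0.37 (SE 0.10, 95% interval −0.61 to −0.12, unadjusted p = 0.00964, adjusted p = 0.499), 50.3% of that in WT (−0.73). Of its 2 further probe sets, 1 differed by −0.56 in WT and −0.31 in KO (unadjusted p = 0.0512) and the other by −0.53 and −0.17 (unadjusted p = 0.286). Neither showed the genotype pattern of the used one. On the former the genotypes overlapped under both diets. On the latter every KO normal array (7.08, 6.59 and 6.76) lay below every WT normal array (7.31, 7.28 and 7.25), and the genotypes overlapped on the high-fat diet.

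Fam163a, a membrane protein gene, read 9.86, 9.93 and 10.30 on the WT normal arrays, 8.79, 8.75 and 8.47 on the WT high-fat arrays, 9.58, 9.35 and 9.19 on the KO normal arrays and 9.08, 9.06 and 8.46 on the KO high-fat arrays. The diets did not overlap in either genotype, and KO high-fat array 3 was the lowest of all. Its difference in KO was −0.51 (SE 0.19, 95% interval −0.96 to −0.06, unadjusted p = 0.0311, adjusted p = 0.588). Without KO high-fat array 3 the difference was −0.31. Its unadjusted p was over 0.05 without that array (0.0533), KO normal array 1 (0.0984) or KO normal array 2 (0.0636). Fam163a lies on chromosome 1, as does Sgpp2, and whether chromosome 1 differs between the genotypes beyond the knocked-out gene was not tested.

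**Figure D2:**
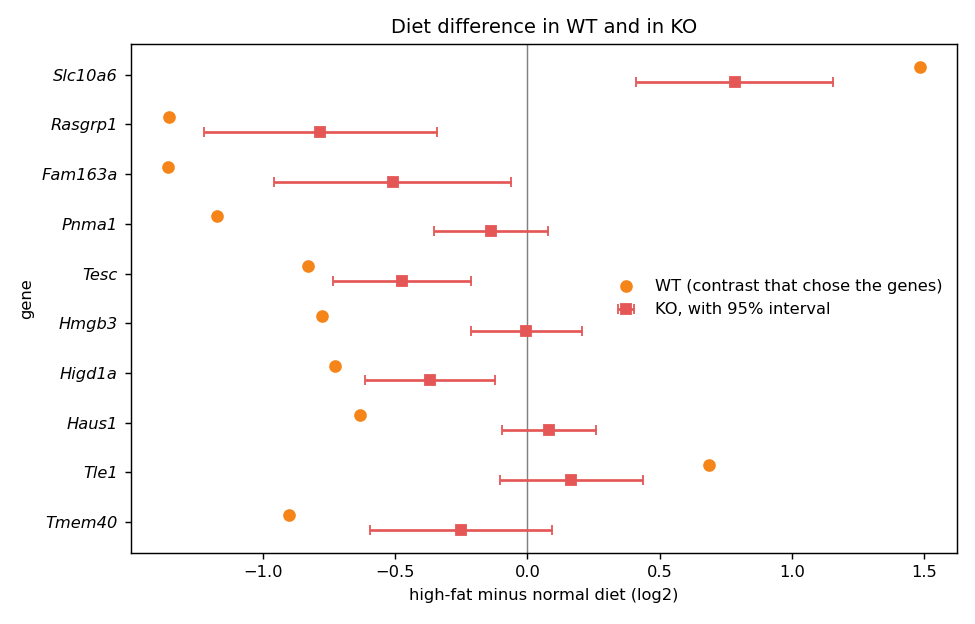
High-fat minus normal diet on the log2 scale for each gene, in WT (circles, the contrast on which the genes were picked) and in KO (squares, with the 95% interval of the limma fit to the 6 KO arrays). The KO interval excludes 0 for Slc10a6, Rasgrp1, Fam163a, Tesc and Higd1a before adjustment over all genes. The WT value lies outside the KO interval for all 10 genes. The genes were picked for the size of that value, and the interval leaves out its error, so its place carries no test.

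In the nuclear genes the KO difference was small. Tle1, the corepressor, read 9.50, 9.62 and 9.37 on the WT normal arrays, 10.19, 10.22 and 10.14 on the WT high-fat arrays, 9.68, 9.84 and 9.96 on the KO normal arrays and 9.85, 10.16 and 9.97 on the KO high-fat arrays. The KO diets overlapped, and the difference of 0.17 had a 95% interval of −0.10 to 0.44 (SE 0.11, unadjusted p = 0.187, adjusted p = 0.821). Its other probe set differed by 0.50 in WT and 0.07 in KO. Hmgb3, the HMG-box gene, read 9.33, 9.01 and 9.12 on the WT normal arrays, 8.39, 8.58 and 8.16 on the WT high-fat arrays, 8.76, 8.62 and 8.53 on the KO normal arrays and 8.63, 8.58 and 8.69 on the KO high-fat arrays. All 6 KO arrays thus lay within 8.53 to 8.76, below the WT normal arrays. The KO difference of Hmgb3 was −0.0041, with a 95% interval of −0.21 to 0.21 (SE 0.09, unadjusted p = 0.964, adjusted p = 0.997).

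Haus1, the augmin subunit, was the 1 gene whose KO mean difference pointed the other way. It read 9.80, 9.64 and 9.73 on the WT normal arrays, 9.0, 9.22 and 9.05 on the WT high-fat arrays, 9.25, 9.20 and 9.31 on the KO normal arrays and 9.34, 9.28 and 9.38 on the KO high-fat arrays. The KO arrays of both diets lay between those of the WT diets, apart from an overlap of KO normal array 2 with WT high-fat array 2. In KO the difference came to 0.08 (SE 0.08, 95% interval −0.10 to 0.26, unadjusted p = 0.316, adjusted p = 0.892).

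Pnma1, of the gag-related family, read 7.12, 6.25 and 6.62 on the WT normal arrays, 5.54, 5.56 and 5.36 on the WT high-fat arrays, 5.93, 5.8 and 5.95 on the KO normal arrays and 5.83, 5.81 and 5.63 on the KO high-fat arrays. The WT normal arrays spread most (SD 0.44, n = 3) and lay above all others, and the KO diets overlapped. The KO difference was −0.14 (SE 0.09, 95% interval −0.35 to 0.08, unadjusted p = 0.172, adjusted p = 0.809), 11.8% of that in WT. Tmem40 read 7.53, 7.44 and 7.63 on the WT normal arrays, 6.54, 6.62 and 6.73 on the WT high-fat arrays, 7.0, 6.92 and 6.73 on the KO normal arrays and 6.58, 6.91 and 6.41 on the KO high-fat arrays. Here too the WT normal arrays lay above all others, and the KO difference of −0.25 had a 95% interval of −0.59 to 0.09 (SE 0.15, unadjusted p = 0.130, adjusted p = 0.760). The further probe sets of Tmem40 differed by −0.27 and −0.28 in WT and by −0.06 and −0.38 in KO (unadjusted p = 0.637 and 0.0822). On each of them the WT normal arrays overlapped the KO normal arrays.

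Of the 19 probe sets, 17 passed the filter. The 9 further probe sets, of Rasgrp1, Tesc, Higd1a, Tle1 and Tmem40, all had the sign of the used one in WT, and 8 of 9 had it in KO; they share the arrays and transcripts of the used ones and are not replicates. In a fit over all 35426 probe sets above the filter, 0 were called for the diet in KO (0%) and 2916 (8.23%) had an unadjusted p under 0.05. Of the 7 further probe sets in that fit, 1, that of Tesc, was among them.

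**Figure D3:**
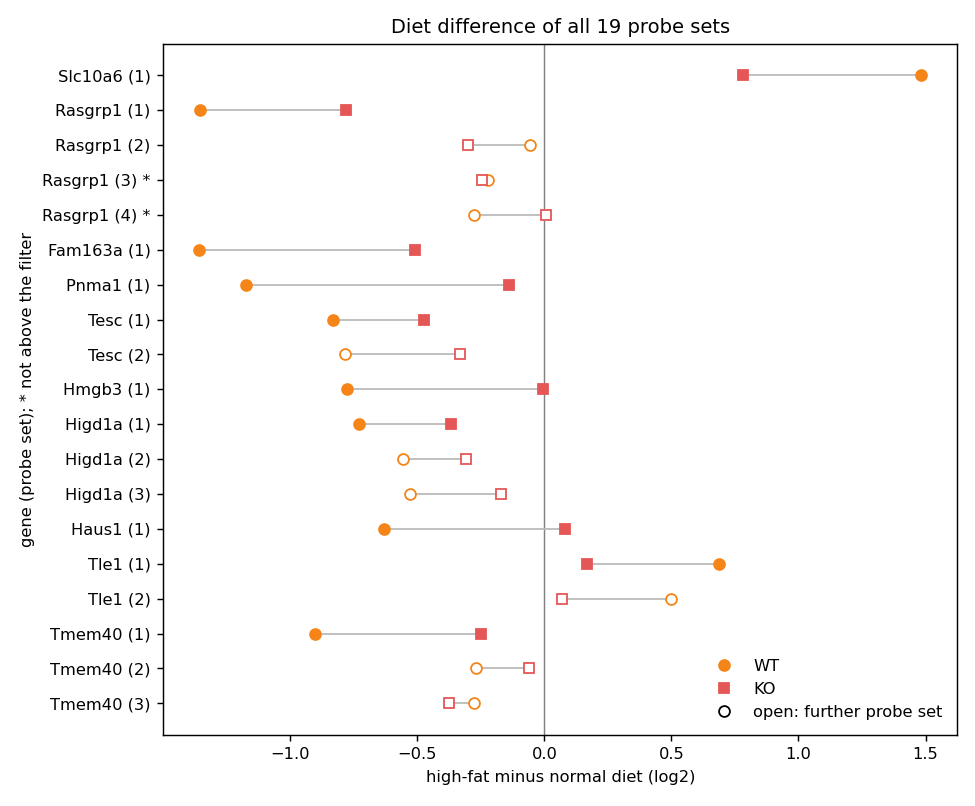
High-fat minus normal diet on the log2 scale for each of the 19 probe sets, in WT (circles) and KO (squares), numbered within each gene; filled marks are the probe set used for the gene, open marks the further ones, and an asterisk marks those below the filter. The further probe sets of Tesc, Higd1a and Tle1 lie near the used one, while those of Rasgrp1 and Tmem40 show smaller WT differences.

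On the normal diet the KO means of all 10 genes, each read on its used probe set, were shifted from the WT means toward the WT high-fat means. The further probe sets of Tesc, Higd1a and Tle1 and the brighter further one of Tmem40 were shifted the same way. All further probe sets of Rasgrp1 and the dimmer further one of Tmem40 were shifted the opposite way, with overlapping genotypes. On the used probe sets the shift (KO minus WT on the normal diet) was 0.66 for Slc10a6, −0.39 for Rasgrp1, −0.65 for Fam163a, −0.77 for Pnma1 and −0.48 for Tesc. It was −0.51 for Hmgb3, −0.03 for Higd1a, −0.47 for Haus1, 0.33 for Tle1 and −0.65 for Tmem40, and the arrays did not overlap in 9 genes, all but Higd1a, as in 34.3% of all genes tested. On the high-fat diet KO minus WT was −0.04, 0.18, 0.20, 0.27 and −0.13 for Slc10a6, Rasgrp1, Fam163a, Pnma1 and Tesc. For Hmgb3, Higd1a, Haus1, Tle1 and Tmem40 it was 0.26, 0.34, 0.25, −0.19 and 0.001, and the genotypes did not overlap in 4 genes (Pnma1, Hmgb3, Higd1a and Haus1), as in 14.8% of all genes. The WT arrays in these differences are those on which the genes were picked, so the values and counts are a description, and nothing is read from the counts against those shares. The difference of the diet effects, KO minus WT, ranged from −0.70 (SE 0.24) for Slc10a6 to 1.04 (SE 0.24) for Pnma1 and holds the WT contrast too; over all genes 0 were called for it (0%), and 758 (4.97%) had an unadjusted p under 0.05.

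**Figure D4:**
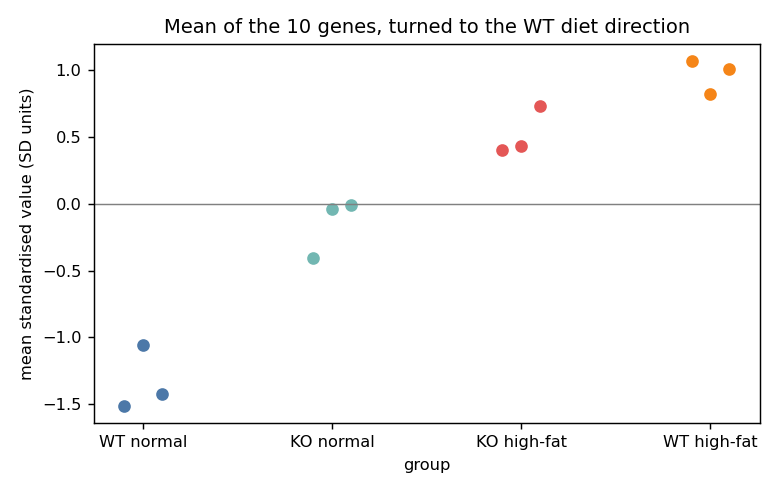
Mean over the 10 genes of each array's standardised value (log2 value minus the gene's mean over 12 arrays, divided by its SD), with the sign turned so that the WT high-fat direction is positive; each point is 1 of 3 arrays a group. The WT normal arrays lie between −1.51 and −1.05, the KO normal arrays between −0.41 and −0.01, the KO high-fat arrays between 0.40 and 0.73 and the WT high-fat arrays between 0.82 and 1.06.

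In this mean over the 10 genes the 4 groups did not overlap, and both KO groups lay between the WT groups. The score was built from the genes picked on the WT arrays, so the outer place of the WT groups follows from the choice.

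Averaged over both diets, a comparison that does not hold the WT diet difference but shares its residual spread, 1 of the 10 genes passed: Tesc was lower in KO, with a difference of −0.30 (SE 0.07, limma adjusted p = 0.0361), where 963 of all genes were called (6.32%) and 460 (3.02%) were lower in KO. Tmem40 differed by −0.32 (SE 0.09, adjusted p = 0.0528), Slc10a6 by 0.31 (adjusted p = 0.123) and Higd1a by 0.16 (adjusted p = 0.187). The 10 genes had a median of −0.12, against −0.041 over all genes. The Tesc call was lost with the replicate number as a block (adjusted p = 0.0534), after cyclic loess (0.0798), after median centring (0.0573) and without any 1 of 9 arrays (0.0563 to 0.0943); it held without array 1 of either KO group or without array 2 of the WT high-fat group. Tmem40 passed when array 2 of the WT (0.047) or of the KO (0.0281) high-fat group was left out.

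Relatives of the 10 genes and partners in their complexes, were read as lists with the member included, and no gene of any list passed for the diet in KO. Of the SLC10 transporters, 4 of 4 measured genes had higher means on the high-fat diet in both genotypes, with medians of 0.18 in WT and 0.15 in KO; Slc10a1 differed by 0.16 (adjusted p = 0.765) and Slc10a3 by 0.13 (adjusted p = 0.773) in KO. Of 8 RAS exchange factors 4 were higher and 4 lower in each genotype (medians 0.04 and 0.003), with 0.39 for Rasgrf2 (unadjusted p = 0.00779, adjusted p = 0.488) and −0.38 for Rasgrp4 (adjusted p = 0.561) in KO. Of 15 genes of augmin and the γ-tubulin ring, which nucleates microtubules, 10 were lower in WT (median −0.04) and 12 were higher in KO (median 0.03). Haus4, another augmin subunit, differed by 0.52 in KO (SE 0.09, unadjusted p = 0.000699, adjusted p = 0.411) and by −0.12 in WT, and Haus3 by 0.24 in KO (adjusted p = 0.719). Over all genes the medians were −0.017 in WT and −0.0057 in KO.

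In the smaller families no pair of relatives passed either. Hmgb2, a chromatin protein of dividing cells, differed by 0.51 in KO (adjusted p = 0.66) and −0.17 in WT, and Hmgb4 by 0.01 in KO (adjusted p = 0.99). Higd1b differed by 0.24 in KO (unadjusted p = 0.0202, adjusted p = 0.538), opposite to Higd1a, and Higd2a by 0.05 (adjusted p = 0.936). Of 7 genes of the Groucho list, 4 were higher in WT and 3 in KO. This list includes the partner gene Hes1, which is not of the family and differed by 0.11 in WT and −0.04 in KO. Tle6 differed by −0.39 (adjusted p = 0.735) and Tle4 by 0.20 (adjusted p = 0.864) in KO. Pnmal1 and Pnmal2 differed by 0.14 and −0.06 in KO (adjusted p = 0.913 and 0.954), Chp2 and the exchanger gene Slc9a3 by −0.13 and −0.33 (adjusted p = 0.893 and 0.696), and Fam163b, with a mean level of 4.86, by −0.14 (adjusted p = 0.919). Of 16 hypoxia targets, 7 were higher in WT and 6 in KO (medians −0.04 in each); Ldha, lactate dehydrogenase A, differed by −0.37 (adjusted p = 0.488) and the oxygen sensor gene Egln3 by 0.44 (adjusted p = 0.499) in KO. Of 10 lipid-responsive genes, 4 were higher in WT and 6 in KO (medians −0.10 and 0.05), with 0.19 for Acot2 (adjusted p = 0.682) and 0.25 for Cpt1a (adjusted p = 0.728).

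**Figure D5:**
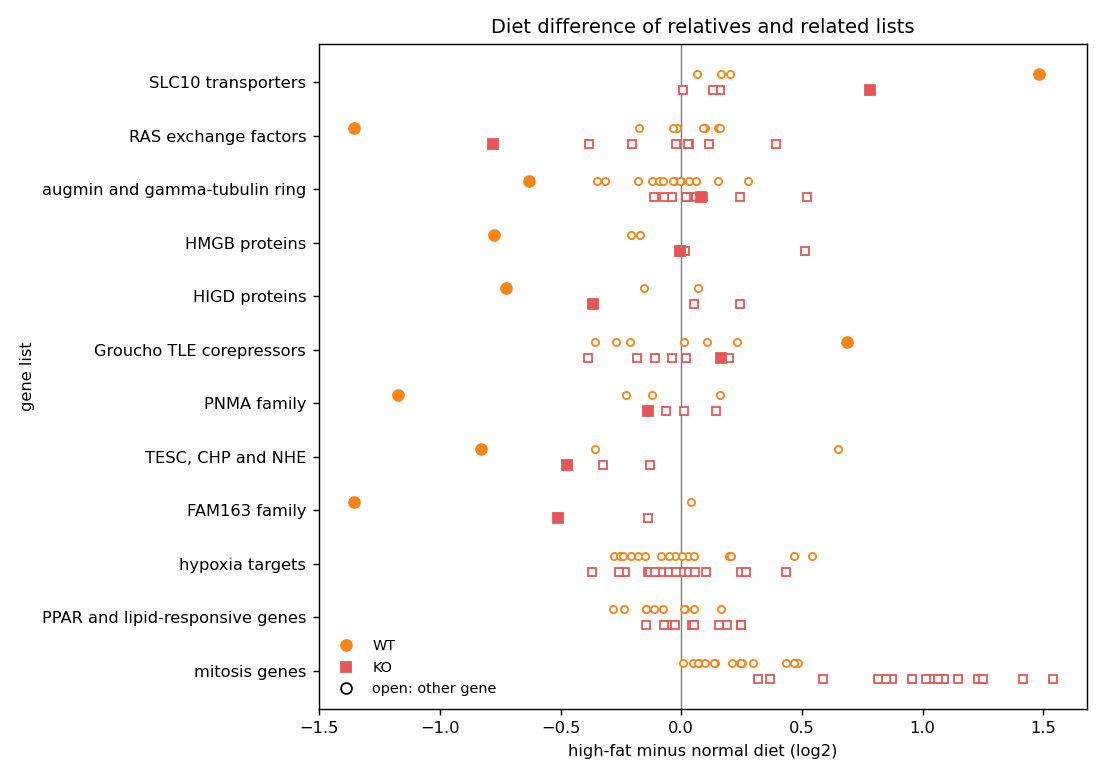
High-fat minus normal diet on the log2 scale for the measured genes of each list, in WT (circles, upper row) and KO (squares, lower row); filled marks are the 9 picked genes that belong to a list (Tmem40 belongs to none) and open marks the others. In WT each of these 9 lies outside the range of its relatives, as its choice favours, and in KO the mitosis genes lie to the right of 0.

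All 17 mitosis genes had higher means on the high-fat diet in both genotypes, with medians of 0.24 in WT and 1.03 in KO. In KO 14 of them had an unadjusted p under 0.05, against 7.59% of all genes, and 0 passed after adjustment. The genes of the list share the same arrays and are not replicates. Cdc20 differed by 1.42 (adjusted p = 0.472) and Ccnb2 by 1.23 (adjusted p = 0.494) in KO. The mean log2 level of this list ranged from 7.28 to 7.56 on the KO normal arrays and from 7.83 to 9.23 on the KO high-fat arrays. In WT the diets overlapped, with levels from 7.38 to 8.36 on the normal arrays and from 7.79 to 8.16 on the high-fat arrays.

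Among cell type markers, β-cell genes differed little with the diet (8 genes, medians −0.02 in WT and −0.006 in KO, array means between 13.41 and 13.63). In WT, 6 of 6 stromal markers (median −0.48) and 3 of 3 Schwann cell markers (−0.49) were lower on the high-fat diet. The stromal array means there spanned 8.91 to 9.61 under the normal and 8.52 to 9.03 under the high-fat diet, and those of Schwann cells 6.25 to 7.66 and 6.06 to 6.56. In KO, 10 of 10 acinar markers (median −0.18), 3 of 3 duct markers (−0.66) and 3 of 3 Schwann cell markers (−0.37) were lower. There the acinar means spanned 13.16 to 13.45 under the normal and 13.09 to 13.15 under the high-fat diet, the duct means 7.0 to 8.08 and 6.77 to 7.27, and the Schwann cell means 6.56 to 6.79 and 6.07 to 6.39. In the other direction, 6 of 6 endothelial markers were higher in KO (median 0.10), among them Pecam1, an adhesion protein of vessel walls (0.52, unadjusted p = 0.00393, adjusted p = 0.482), with array means of 9.58 to 9.76 under the normal and 9.71 to 9.92 under the high-fat diet; in WT 3 were higher and 3 lower. Markers of alpha, delta, PP, macrophage, B, fat, liver and red blood cells had medians between −0.10 and 0.12 in both genotypes. The 7 measured T and NK cell markers had medians of 0.12 in WT and −0.09 in KO, with array means from 5.65 to 5.72 (WT normal), 5.63 to 6.04 (WT high-fat), 5.83 to 6.05 (KO normal) and 5.74 to 6.11 (KO high-fat). Cftr, Itgam, Adipoq, Lep and Hba-a1 did not pass the filter. No marker passed in either genotype, and the part of these cell types in the differences of the 10 genes was not tested.

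By likeness over the 12 arrays to the mean of the 10 standardised genes, the genes nearest were Crhbp, a binding protein of corticotropin-releasing hormone (r = 0.92), Sla (0.90), Wdr59 (0.90), the heat shock gene Hsph1 (0.90) and Hbb-bh1 (0.90). The most opposite were Mapk9, which encodes the kinase JNK2 (−0.95), Sned1 (−0.94), Prune1 (−0.92), Mid1ip1 (−0.92) and Bambi-ps1 (−0.92). With the mean taken over the 6 KO arrays alone, r was 0.96 for Crhbp, −0.96 for Mapk9, −0.91 for Sned1 and −0.87 for Prune1, but 0.40 for Wdr59, −0.46 for Hsph1 and −0.44 for Mid1ip1. The arrays share their 4 groups, so r describes likeness and carries no p. Crhbp differed with the diet by 1.36 in WT and 0.80 in KO, and Mapk9 by −0.31 and −0.09.

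The WT contrast behind the choice was itself unsteady in its calls. The 12 genes called became 0 without any 1 of 6 arrays (WT normal arrays 1 and 3, WT high-fat arrays 1 and 2, KO normal arrays 2 and 3), 2 without WT normal array 2 or WT high-fat array 3 and 6 without KO high-fat array 1. The sizes moved less: without WT high-fat array 2, which stood apart, the WT differences of the 10 genes were between 0.67 and 1.49 in size, against 0.63 to 1.48 with it.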

How the data were processed

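RNA of 12 samples was measured on 1 array each. Per the submitters' processing notes, RMA and Partek 6.6 made the deposited log2 values (background correction, quantile normalization, summary over the probes of a set); the sources used here name no further settings. Values span 2.6 to 15.3, with array medians of 7.0 to 7.13, and 75.9% to 77.3% of probe sets an array were above 5; equalised distributions can hide a shift of most genes.

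Of 45101 probe sets, 64 were controls, and 34945 had 1 gene symbol, 932 several and 9160 none in the probe table; only those with 1 were named, and 34741 matched RefSeq (GRCm38.p6) by Entrez identifier. A gene was represented by its brightest probe set over all arrays; 15237 of 18193 genes were above 5 on at least 3 arrays and were tested.

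Limma 3.58.1 in R 4.3.3 fitted the 6 KO arrays for the diet in KO (6.94 degrees of freedom after moderation) and all 12 arrays for the other comparisons (11.08). Tests were two-sided, with Benjamini-Hochberg adjustment over all genes (threshold 0.05). Every p is from limma, and from these fits unless another setting is named. KO arrays alone were used to keep out the spread of the WT arrays, which took part in the choice. The KO spread also enters the 12-array fit of the WT contrast, so it is not independent of the choice. The p-values of single further probe sets come from a limma fit of the KO arrays over all probe sets without the filter. The fits were tested on simulated data. The members and lists were chosen with earlier results of these data known. Named are the 10 genes, from each list up to 2 others with the smallest p in KO, and the 5 genes most and least like their mean. Same-numbered KO arrays deviated together across diets (r = 0.29, 0.38 and 0.14), a pairing that rests on the values and not on the labels. Figures used matplotlib 3.10.9 in Python 3.11.15.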

Additional observations from a re-analysis of the deposited data

How the results depend on the processing

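For the diet in KO, 0 genes and 0 of the 10 were called under all 15 alternatives: filter at 6 or none, mean of a gene's probe sets, every probe set, cyclic loess, median centring, trended and robust variances, all 12 arrays, the replicate number as a block, and leaving out each KO array. The count of members at an unadjusted p under 0.05 stayed between 4 and 6 (alternatives chosen after seeing the data): 5 with the replicate block, 4 without KO high-fat array 3, KO normal array 1 or KO normal array 2, 4 with the mean of probe sets, where Higd1a had 0.0512, and 6 without KO high-fat array 2, where Tmem40 had 0.0179. Members in the WT direction numbered 8 or 9, and the median of the members was between 0.24 and 0.41. With the filter at 6, Slc10a6 was not tested. The 8 in the WT direction and the 4 at an unadjusted p under 0.05 in that setting are counted without it. Shares over all genes were given for the reported fits only. The member counts under the alternatives, for diet and for genotype, therefore show how far the counts moved and are set against no share. Sizes of single genes moved more: in KO, Rasgrp1 was −0.33 with the mean of probe sets; without KO high-fat array 3, Fam163a was −0.31, Pnma1 −0.076 and Tmem40 −0.14; without KO high-fat array 2, Tmem40 was −0.39 and Tle1 0.086; Tle1 was 0.094 without KO normal array 1, and Haus1 0.051 after cyclic loess. For genotype, Tmem40 was −0.14 with the mean of probe sets. The sign of Hmgb3 turned without KO high-fat array 2 (0.024) or KO normal array 1 (0.057), over a range of −0.057 to 0.057 when 1 array was left out. Members called for genotype over both diets numbered 1 as reported, 2 with every probe set or the filter at 6, 0 after cyclic loess, median centring or with the replicate block, and 0 to 2 when 1 array was left out. Genes called for the diet in WT numbered 12 as reported, 1 with the WT arrays only, 0 with the replicate block, 24 with trended and robust variances and 0 to 11 when 1 array was left out. The interaction had 0 calls throughout. WT pairs of 1 number correlated with r of 0.052, 0.099 and −0.16, so the numbers were not taken to pair WT samples, nor samples across genotypes (r from −0.51 to 0.055). The cause of these changes was not tested. The number of arrays limits the precision: the median SE of a KO diet difference was 0.11, and 3 arrays against 3 allow no exact permutation p under 0.1.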

Other observations

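The 2 genes called in WT beside the 10 also had diet differences in KO of the same sign. Reg2, a secreted protein of the regenerating family, read 12.74, 12.04 and 13.97 on the WT normal arrays, 9.25, 8.12 and 8.83 on the WT high-fat arrays, 13.37, 12.64 and 11.19 on the KO normal arrays and 11.69, 10.09 and 10.44 on the KO high-fat arrays. Its KO difference was −1.66 (SE 0.62, unadjusted p = 0.0309, adjusted p = 0.588), and the KO diets overlapped. Hbb-bh1 differed by 0.37 in KO (SE 0.13, unadjusted p = 0.027, adjusted p = 0.568). Of the genes just outside the WT threshold, H3c4 read 9.14, 9.02 and 9.26 on the KO normal arrays and 8.98, 8.85 and 9.42 on the KO high-fat arrays, the level of the WT high-fat arrays (9.15, 9.20 and 9.16) and above that of the WT normal arrays (8.32, 8.38 and 7.96). Itga10, an integrin subunit, differed by 0.61 in WT and by −0.17 in KO (adjusted p = 0.734).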
